A study of Mus musculus with 54 samples.

Results

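Naive CD4+ T cells of WT C57BL/6 mice were compared after 4 h of stimulation with the same kind of cells left unstimulated. The 3 WT libraries at 4 h and the 3 WT libraries at 0 h were taken by genotype, time, and count table from the CD5/CD6 experiment, and they are 6 of the 36 libraries of that experiment and 6 of the 54 libraries of the series. Cells came from pooled lymph nodes and spleens of mice aged 8 to 10 wk and were enriched with a magnetic isolation kit, with no flow sorting step. Stimulated cells received anti-CD3 bound to the plate (3 µg/ml) and anti-CD28 in solution (1 µg/ml). RNA of the 0 h cells was taken right after purification, without culture, so effects of the antibodies and of 4 h in culture cannot be told apart. The labels call the 3 libraries of a group biological replicates, and the number of mice pooled for each was not given in the sources used here. Other groups were used only for comparison. These were WT cells at 20 h, Cd5-/-Cd6-/- cells (C57BL/6, a deletion of both genes) at 0 h and 4 h, and hDTR+ cells that were flow-sorted as the WT cells of the LAT experiment from Lat fl-dtr maT-Cre mice (C57BL/6) and given the same stimulation.

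As background, a naive T cell is a resting cell that expresses homing receptors and transcription factors that hold it in quiescence. Engagement of the TCR and CD28 activates ERK, calcineurin, and NF-kappaB signaling, and within minutes to hours the cell transcribes immediate early genes, cytokines, and receptors for costimulation. Growth follows, as MYC-dependent programs raise nutrient uptake, ribosome production, and protein synthesis before the cell enters S phase.

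The 6 libraries held between 27453101 and 41520439 reads assigned to genes. Values are given as CPM, a gene's share of the reads assigned to genes, scaled by edgeR's trimmed mean of M values (TMM). They are not amounts per cell. A count of 3 reads, used as the floor, is between 0.0727 and 0.106 CPM. Pairs of libraries of 1 group differed by 28.7 to 79.1 times the variance of counting alone, so no library was a second copy of another. All 10 T cell markers fixed for the check were present, with summed levels of 7460 to 9410 CPM at 0 h and 6140 to 7580 CPM at 4 h. Libraries 1 and 3 at 0 h stood apart in opposite ways. Library 1 had the highest level of the immediate early genes Fos, Jun, and Junb, and library 3 the highest sums of B cell and antigen-presentation genes, as given below beside the results that they touch.

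Of 32290 genes tested, 2661 (8.24%) were higher and 3587 (11.1%) lower at 4 h, together 19.3%, by a change of more than 2-fold with an adjusted p under 0.05 (quasi-likelihood test of edgeR, Benjamini-Hochberg method). Such genes are said to have risen or fallen below. The 3 libraries of one time did not overlap those of the other for 2604 of the 2661 genes and for 3370 of the 3587, against 16.5% and 18.8% of all genes. Genes that rose took between 12.4% and 12.7% of the reads at 0 h and between 36.1% and 38% at 4 h. Genes that fell went from between 23.9% and 24.2% of the reads to between 5.69% and 6.86%. The genes were called on these same libraries, so the separation and the shares of reads describe the calls and do not test them. Among the genes that rose, 1088 changed over 4-fold and 290 over 16-fold, and among the genes that fell these counts were 1720 and 319. Of the 10913 genes that averaged at least 50 counts, to which most members of the lists below belong, 1961 were higher and 2331 lower, together 39.3%. The split depends on the scaling. With library totals alone, in place of TMM factors, 1966 genes were higher and 4451 lower, and the median log2 fold change of those 10913 genes moved from -0.0312 to -0.278. Fold changes below are relative to the TMM scale. In bulk RNA, fewer cells of a type and less RNA per cell cannot be told apart.

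**Figure D1:**
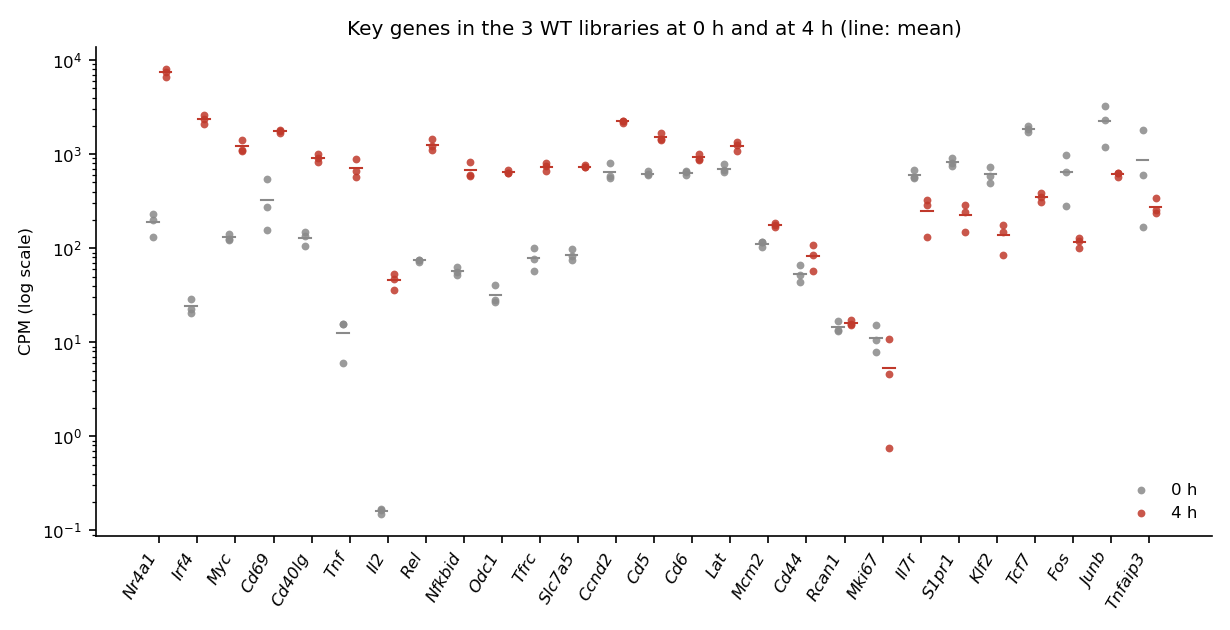
CPM on a log scale of 27 named genes in each of the 3 WT libraries at 0 h (gray) and at 4 h (red), with lines at the means. Nr4a1, Irf4, and Il2 are separated by more than an order of magnitude between the times, whereas the points of Rcan1, Cd44, and Mki67 lie close together or overlap.

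Immediate early and activation transcription factors held many of the steepest rises. Of 37 tested, 21 rose and 7 fell, with a median log2 fold change of 2.13 against 0 over all genes. Nr4a1, an orphan nuclear receptor induced by TCR signals, was at 232, 202, and 131 CPM at 0 h and 6686, 8008, and 7507 CPM at 4 h. The groups were far apart and the log2 fold change was 5.30 ± 0.29 (SE, as after each ± below; adjusted p = 8.83e-27). Its relatives Nr4a2 and Nr4a3 rose by 8.23 ± 0.35 and 7.07 ± 0.24 on the log2 scale. Egr2, a zinc finger factor that depends on calcium and ERK signals, went from near the floor (0.166, 0.241, and 0.655 CPM) to 19.3, 18.1, and 19.8 CPM, a log2 fold change of 5.67 ± 0.33 that was 6.5 without 0 h library 3. Egr1 and Egr3 rose by 3.36 and 4.64. Irf4, whose level is known to follow TCR signal strength, was at 22.4, 20.7, and 29.2 CPM at 0 h and 2638, 2354, and 2072 CPM at 4 h, a log2 fold change of 6.61 ± 0.20 (adjusted p = 2.93e-42). Its homolog Irf8 rose by 3.52. Fosl1, which encodes the AP-1 subunit FRA-1, had 0 counts in all 3 libraries at 0 h and 6.14, 4.89, and 3.94 CPM at 4 h, at least 57-fold higher when set against 3 counts per library.

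Not all members of the AP-1 family moved in the same direction. Fosl2 rose from 32.4, 16.7, and 19.2 CPM to 839, 1180, and 912 CPM (5.43 ± 0.25 on the log2 scale). In contrast, Fos was at 991, 644, and 284 CPM at 0 h and 99.7, 127, and 119 CPM at 4 h, a log2 fold change of -2.47 ± 0.41 (adjusted p = 4.32e-07). Jun and Junb fell as well, by 3.89 and 1.87 on the log2 scale, as did Batf, an AP-1 factor of effector cells (-1.16). Junb was at 3223, 2304, and 1188 CPM at 0 h and 578, 630.1, and 629 CPM at 4 h. All 3 genes were lower in every 4 h library than in any 0 h library, but their 0 h levels spread widely, with library 1 the highest and library 3 the lowest for each of them. In the sorted cells, where another set of libraries was used, the log2 fold changes were -1.52 for Fos and -1.88 for Jun, both called, and -0.88 for Junb, which was not called. Without 0 h library 1 the falls of Fos, Jun, and Junb were still called.

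The NF-kappaB pathway showed rises of subunits and regulators, with 10 of 26 members higher and 3 lower (1 lower with filterByExpr, median 0.826). Rel, which encodes the subunit c-Rel, was at 75.7, 74.4, and 72.1 CPM at 0 h and 1221, 1466, and 1107 CPM at 4 h, and no library of one time came near the other (log2 fold change 4.09 ± 0.21, adjusted p = 1.19e-28). Nfkb1 rose by 2.83 ± 0.18 and Nfkb2 by 2.86 ± 0.17. Nfkbid, encoding the nuclear inhibitor IκBNS, was at 56.1, 62.8, and 52.4 CPM at 0 h and 601, 835, and 588 CPM at 4 h, a log2 fold change of 3.56 ± 0.21. Tnfaip3, which encodes the deubiquitinase A20, an inhibitor of the pathway, was at 1827, 599, and 169 CPM at 0 h and 234, 343, and 252 CPM at 4 h. Its fall of 1.65 on the log2 scale (SE 0.53, adjusted p = 0.0111) rested on 0 h libraries that differed by an order of magnitude, and the groups overlapped, because 0 h library 3 lay below all of the 4 h libraries. Without 0 h library 1 the log2 fold change was -0.49 and not called (adjusted p = 0.519), and with DESeq2 the adjusted p was 0.0874. In sorted cells Tnfaip3 was at 274, 114, and 422 CPM at 0 h and 222, 271, and 409.9 CPM at 4 h and was not called (0.16). Nfkbia, a target gene of the pathway that encodes its inhibitor, did not pass the thresholds (0.53). Among NFAT and calcineurin genes, Nfatc1, which is known to amplify its own transcription, was the 1 of 14 that rose (221, 203, and 235 CPM to 1411, 1267, and 1139 CPM, log2 fold change 2.54 ± 0.19). Nfatc2 (-1.5) and Nfatc3 (-1.49) fell, and Rcan1, a calcineurin inhibitor and NFAT target, was at 13.6, 13.0, and 16.9 CPM at 0 h and 17.1, 15.6, and 15.2 CPM at 4 h, with overlapping groups. It was not called (0.14), and its sign turned with library totals alone (-0.11).

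Promoters of 3 genes of this pathway are shown because each holds a match to the NF-kappaB consensus on one of the strands, in a window from 250 bases before to 50 bases after the start given by RefSeq (build GRCm38.p6). Capitals mark the matches. In Rel (chr11:23770920-23771219, minus strand), 2 overlapping matches begin 92 and 91 bases before the start. In Nfkb2 (chr19:46304487-46304786, plus strand), the matches begin 39, 38, and 11 bases before it, and in Tnfaip3 (chr10:19015361-19015660, minus strand) 125 and 12 bases before it.
Rel: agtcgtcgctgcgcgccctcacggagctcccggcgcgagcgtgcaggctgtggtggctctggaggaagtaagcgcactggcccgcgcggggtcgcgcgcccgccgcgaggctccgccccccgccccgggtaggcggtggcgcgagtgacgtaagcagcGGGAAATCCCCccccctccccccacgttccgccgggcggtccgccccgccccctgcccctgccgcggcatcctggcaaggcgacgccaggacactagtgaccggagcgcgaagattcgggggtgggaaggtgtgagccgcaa
Nfkb2: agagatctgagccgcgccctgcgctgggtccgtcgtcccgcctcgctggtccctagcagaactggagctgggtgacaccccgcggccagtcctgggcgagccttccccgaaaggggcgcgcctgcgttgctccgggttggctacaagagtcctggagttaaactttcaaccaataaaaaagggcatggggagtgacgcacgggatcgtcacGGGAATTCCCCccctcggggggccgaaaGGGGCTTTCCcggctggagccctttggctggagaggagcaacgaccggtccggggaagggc
Tnfaip3: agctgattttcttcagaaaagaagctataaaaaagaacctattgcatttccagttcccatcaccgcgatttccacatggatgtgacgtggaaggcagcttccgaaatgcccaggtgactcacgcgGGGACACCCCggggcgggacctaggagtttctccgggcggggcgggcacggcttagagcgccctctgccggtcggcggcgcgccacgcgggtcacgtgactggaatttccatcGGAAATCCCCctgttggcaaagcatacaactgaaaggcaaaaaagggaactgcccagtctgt
The consensus was found in 5.91% of the promoters of protein-coding genes that rose, 5.89% of those that fell, 5.11% of those tested, and 4.51% of all 32851 RefSeq windows of that length. A match is a run of letters and not a measured binding site.

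Most cytokine genes rose, 19 of 26 being higher and 3 lower, with a median log2 fold change of 2.17. Il2, the growth factor of activated T cells, was near the floor at 0 h (0.166, 0.151, and 0.17 CPM) and reached 47.5, 53.7, and 36.3 CPM at 4 h, a log2 fold change of 8.11 ± 0.42 (adjusted p = 7.86e-28). Tnf was at 5.99, 15.5, and 15.8 CPM at 0 h and 576, 887, and 657 CPM at 4 h (5.82 ± 0.30). Lif (5.55) and Lta (3.87) rose too. Il3 and Il13, cytokines of mast cell and type 2 responses, had 0 counts in all 0 h libraries and means of 1.19 and 1.04 CPM at 4 h, at least 13.6-fold and 11.9-fold higher when set against 3 counts per library. With the 4 cytokine genes that had 0 counts at 0 h set to such bounds, the median of the list was 1.83. Ifng was at 0.632, 2.35, and 0.824 CPM at 0 h and 2.11, 3.52, and 6.07 CPM at 4 h. The groups overlapped, library 2 at 0 h being above library 1 at 4 h, and its log2 fold change of 1.62 ± 0.64 stood at the threshold (adjusted p = 0.0490). It was no longer called without 0 h library 1 (1.29), 0 h library 3 (1.35), or 4 h library 3 (1.14), and reached 2.40 without 0 h library 2. The call was also lost with RLE factors (adjusted p = 0.0734), library totals alone (0.205), filterByExpr (0.141), and DESeq2 (0.169). Il16, a cytokine of resting T cells, fell by 2.31. Among 15 chemokine genes, 7 rose and 1 fell. Xcl1 went from 1.66, 2.05, and 2.79 CPM to 242, 267, and 325 CPM (6.99 ± 0.43 on the log2 scale), Ccl4 rose by 5.77 ± 0.37, and Ccl3 by 3.14 ± 0.42. Both Ccl4 and Ccl3 rose more in the sorted cells (7.77 and 5.45), with differences of -1.98 ± 0.32 and -2.29 ± 0.39 that were not called with filterByExpr. The median of the chemokine list was 2.66, and 1.58 with the genes at 0 counts in one group set to their bounds.

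The Il2 promoter (chr3:37125905-37126204, minus strand, RefSeq, GRCm38.p6) is shown because it is the promoter of the T cell growth factor described above. Capitals mark a TATAAA that begins 31 bases before the start.
Il2: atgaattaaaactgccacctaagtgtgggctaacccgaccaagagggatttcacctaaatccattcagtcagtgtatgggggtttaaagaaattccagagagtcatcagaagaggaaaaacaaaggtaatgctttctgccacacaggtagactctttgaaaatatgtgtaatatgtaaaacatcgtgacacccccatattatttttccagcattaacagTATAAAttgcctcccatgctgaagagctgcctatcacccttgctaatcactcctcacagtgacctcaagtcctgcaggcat
TATAAA was found on either strand in 13.9% of the promoters of the 79 protein-coding genes that rose over 16-fold and averaged at least 50 counts, in 8.27% of all that rose, in 8.58% of those that fell, in 9.03% of those tested, and in 6.38% of those tested that averaged at least 50 counts.

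Receptors and ligands of costimulation changed broadly. Of 34 costimulatory, checkpoint, and TNF family genes, 21 rose and 4 fell (7 fell with library totals alone), with a median of 1.94 (1.72 with Cd70, at 0 counts at 0 h, set to its bound). Tnfrsf9, encoding the costimulatory receptor 4-1BB, went from 18.2, 17.5, and 20.9 CPM to 1866, 1364, and 1567 CPM (6.40 ± 0.24 on the log2 scale). Cd40lg, the ligand through which helper T cells activate B cells, was at 148, 135, and 105 CPM at 0 h and 821, 1005, and 900.3 CPM at 4 h (2.81 ± 0.19). Pdcd1, encoding PD-1, rose by 5.98 ± 0.30, and genes of its ligands, Cd274 and Pdcd1lg2, by 4.47 and 5.10. Tnfsf14 and Tnfsf11, which encode LIGHT and RANKL, rose by 6.38 and 5.67. Icos, Tnfrsf4 (OX40), and Tigit rose by 2.42, 3.33, and 2.16, whereas Ctla4 (0.52) and Lag3 (-0.20) did not pass the thresholds. Cd226, which competes with Tigit for a shared ligand, fell from 83.9, 68.5, and 70.0 CPM to 7.65, 10.8, and 10.3 CPM (-2.95 ± 0.20), and Tnfsf10, encoding TRAIL, and Cd96 fell by 2.82 and 1.71.

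Among surface molecules of activation and adhesion, 7 of 22 rose and 7 fell. Cd69, which retains activated cells in lymphoid tissue, was at 539, 274, and 158 CPM at 0 h and 1662, 1756, and 1816 CPM at 4 h. The groups did not overlap, and the log2 fold change was 2.43 ± 0.32 (adjusted p = 1.27e-09), although the 0 h libraries spread from 158 to 539 CPM. Tfrc, the transferrin receptor, was at 101, 76.9, and 57.9 CPM at 0 h and 659, 799, and 740.2 CPM at 4 h (3.22 ± 0.19). Cd44, a marker of antigen-experienced cells, was at 51.6, 43.5, and 66.3 CPM at 0 h and 85.5, 56.8, and 107 CPM at 4 h, and the overlapping groups gave a log2 fold change of 0.63, below the fold threshold. Integrin genes moved in both directions. Itgav rose by 2.46, whereas Itgb7, Itgb3, and Itga4 fell by 3.43, 2.86, and 2.00. Selplg, the ligand of P-selectin, fell by 2.42.

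Quiescence genes of naive cells mostly fell, whereas homing receptors were split. Of 38 quiescence factors, 23 fell and 1 (Runx1, 1.65) rose, with a median of -1.31, and of 13 homing receptors 6 fell and 4 rose. Klf2, a transcription factor that maintains homing receptors, was at 739, 592, and 499 CPM at 0 h and 84.7, 150.3, and 176 CPM at 4 h (-2.16 ± 0.22, adjusted p = 9.71e-14). S1pr1, its target and the receptor for lymphoid exit, was at 903, 754, and 809 CPM at 0 h and 150.1, 243, and 292 CPM at 4 h (-1.85 ± 0.20). Both genes were lower in all 4 h libraries than in any 0 h library. Tcf7, encoding TCF-1, was at 1978, 1726, and 1855 CPM at 0 h and 312, 386, and 352 CPM at 4 h (-2.40 ± 0.16), and Lef1, its relative, fell by 1.83. Foxo1, which sustains Klf2 and Il7r, fell by 1.86. Txnip, an inhibitor of glucose uptake, fell by 3.09, and Tsc22d3, the glucocorticoid-induced leucine zipper, by 3.14. Igfbp4, an insulin-like growth factor binding protein, went from 1232, 923, and 1312 CPM to 11.7, 17.6, and 22.0 CPM (-6.08 ± 0.27). Btg1 (-0.50) and Slfn2 (-0.37), also linked to quiescence, did not pass the thresholds. Without 0 h library 1, 4 members of this list rose, and with filterByExpr 3. Of 8 GIMAP genes, GTPases of lymphocyte survival, 0 rose and 2 fell (1 with filterByExpr), Gimap7 the more (-1.95). The share called, 25%, was below the 39.3% of all genes that averaged at least 50 counts. Chemokine receptors of effector cells rose instead, Ccr8 from 3.53, 2.89, and 2.89 CPM to 292, 246, and 185 CPM (6.28 ± 0.24), and Ccr4 by 3.11. Of 22 cytokine receptor chains, 6 rose and 8 fell (3 and 10 with library totals alone). Il7r, the receptor chain for the survival cytokine IL-7, was at 680.2, 557, and 573 CPM at 0 h and 133, 287, and 328 CPM at 4 h (-1.28 ± 0.21). Without 4 h library 1 it was at -0.99 and not called. Il6ra and Il18r1 fell by 1.61 and 2.42, and Il15ra rose by 2.55.

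Genes of the TCR signaling machinery moved in both directions, with 5 of 33 higher and 12 lower. Zap70, the kinase recruited to the engaged TCR, went from 240.4, 243, and 302 CPM to 1055, 934, and 913 CPM (1.89 ± 0.15), and Lcp2, encoding the adaptor SLP-76, rose by 2.05 ± 0.15. Fyn and Ptprc (CD45) rose by 1.34 and 1.24, the latter at 0.99 and not called with library totals alone. Sit1, Themis, Grap2, and Fyb, which encode adaptors and regulators near the TCR, fell by 3.71, 2.89, 2.40, and 2.11. Lat, the adaptor that the series deletes in another experiment, was at 671, 649, and 792 CPM at 0 h and 1248, 1077, and 1345 CPM at 4 h. It was higher in every 4 h library (adjusted p = 6.86e-05) but below the fold threshold (0.80). Cd3e, Cd3d, and Cd3g, which encode CD3 chains, did not pass the thresholds (-0.10, -0.48, and -0.36).

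Inhibitors of signaling rose and fell in equal number, 10 and 10 of 40. Cd5, an inhibitory receptor whose level follows TCR signals, was at 609, 602, and 657 CPM at 0 h and 1684, 1400, and 1447 CPM at 4 h. The groups did not overlap (log2 fold change 1.28 ± 0.32, adjusted p = 8.14e-04). Cd6, its paralog, was at 661, 641, and 599.7 CPM at 0 h and 1012, 888, and 867 CPM at 4 h, a log2 fold change of 0.54 ± 0.26 that was not called (adjusted p = 0.115), although here too each 4 h library was above each 0 h library. Libraries of all genotypes, knockouts of these genes among them, share the estimate of the spread in that fit. Which of them widened the spread was not tested. In a fit of only the 6 libraries compared, the log2 fold changes were 1.34 for Cd5 (adjusted p = 9.78e-12) and 0.60 for Cd6 (adjusted p = 8.01e-04), which left Cd6 under the fold threshold. Rgs16, which limits G protein signals, rose from 3.16, 4.04, and 1.29 CPM to 465, 383, and 331 CPM (7.13 ± 0.35). Ubash3b, the phosphatase STS-1, rose by 3.93, whereas its relative Ubash3a fell by 1.18. Ptpn22, Cblb, and Cish rose by 2.56, 2.07, and 1.96, and Socs3, Dgka, and Rgs14 fell by 2.33, 1.63, and 3.64. Feedback inhibitors of ERK mostly rose, with 11 of 20 higher and 4 lower. Spry1 went from 7.62, 4.91, and 5.60 CPM to 767, 717, and 675 CPM (6.90 ± 0.25), and Dusp4 and Spred1 rose by 5.03 and 3.31. Dusp1, an immediate early phosphatase, fell by 2.42, and, like Fos, it was highest in 0 h library 1 (508, 234, and 138 CPM in libraries 1 to 3) and fell by 1.77 without it.

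Calls among factors that destabilize mRNA and among members of the BCL2 family went in both directions. The share called was 33.3% of the mRNA decay factors and 50% of the BCL2 family, against 39.3% of all genes that averaged at least 50 counts. The share of the mRNA decay factors was thus below that of all such genes. Of 21 mRNA decay factors, 5 rose and 2 fell (3 rose without 0 h library 2, and 3 rose and 4 fell with library totals alone). Zfp36l1 rose by 2.64 ± 0.17 and its paralog Zfp36l2 fell by 2.59, both encoding proteins that bind AU-rich elements. Of 18 BCL2 family genes, 6 rose and 3 fell. The antiapoptotic gene Bcl2a1b rose by 5.12, but it has near-identical copies between which reads could be split, so its value is uncertain. Bcl2l1, encoding BCL-XL, rose from 36.0, 25.6, and 35.4 CPM to 129, 131, and 125 CPM (1.99 ± 0.16). The proapoptotic genes Bad, Bmf, and Bbc3 fell by 1.90, 1.85, and 1.40, and Pmaip1 and Bid, also proapoptotic, rose by 1.30 and 1.26.

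Ribosome production had the highest share of rising members among the 32 pathway lists. Of 77 genes of ribosome biogenesis and RNA polymerase I, 68 rose and 0 fell, with a median log2 fold change of 1.98 and a range of -0.11 to 2.85. Myc, a regulator of this program in many cells, was at 123, 143, and 125 CPM at 0 h and 1121, 1425, and 1084 CPM at 4 h. No library overlapped, and the log2 fold change was 3.21 ± 0.18 (adjusted p = 8.02e-27). Polr1b, a core subunit of RNA polymerase I, went from 45.8, 53.0, and 57.8 CPM to 383, 405, and 345 CPM (2.85 ± 0.15). Grwd1, a histone-binding factor of ribosome assembly, rose by 2.85 ± 0.17, and Rrp1b and Mrto4 by 2.83 and 2.79. Ncl, encoding nucleolin, had one of the largest gains in reads, from 861, 839, and 827 CPM to 4684, 4838, and 3483 CPM (2.36 ± 0.19). Ubtf and Taf1b, components of the polymerase I initiation machinery, were among the members not called (-0.11 and -0.11). In contrast, of 64 cytosolic ribosomal protein genes 6 rose and 1 fell (median -0.123), and 4 rose and 3 fell with library totals alone. Those that rose, such as Rps10 (2.76, 5.30, and 2.86 CPM to 14.0, 21.9, and 13.7 CPM) and Rpl10a (28.9, 36.4, and 18.9 CPM to 93.0, 137, and 83.0 CPM), belong to families with many processed pseudogenes, and their counts are uncertain. Within the MYC and MAX network, 2 of 13 rose and 4 fell. Mxd4 and Mxi1, MAX partners that oppose MYC, fell by 2.73 and 1.39. The median of this list was 0.0789 and turned to -0.163 with library totals alone, the only median of the 32 pathway lists whose sign changed with that scaling.

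Promoters of Grwd1 (chr7:45830740-45831039, minus strand), Nop2 (chr6:125131633-125131932, plus strand), and Pno1 (chr11:17211540-17211839, minus strand), which encode factors of ribosome assembly, are shown because each holds the palindrome CACGTG, the E-box bound by MYC and related factors (RefSeq, GRCm38.p6). Capitals mark it, 34 bases after the start in Grwd1, 60 bases before it in Nop2, and 37 bases after it in Pno1.
Grwd1: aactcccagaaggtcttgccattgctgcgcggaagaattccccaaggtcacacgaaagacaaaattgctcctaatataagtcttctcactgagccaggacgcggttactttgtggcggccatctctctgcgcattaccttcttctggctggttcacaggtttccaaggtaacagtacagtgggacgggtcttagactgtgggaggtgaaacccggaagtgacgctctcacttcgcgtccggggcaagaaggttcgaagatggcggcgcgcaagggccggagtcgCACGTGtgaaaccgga
Nop2: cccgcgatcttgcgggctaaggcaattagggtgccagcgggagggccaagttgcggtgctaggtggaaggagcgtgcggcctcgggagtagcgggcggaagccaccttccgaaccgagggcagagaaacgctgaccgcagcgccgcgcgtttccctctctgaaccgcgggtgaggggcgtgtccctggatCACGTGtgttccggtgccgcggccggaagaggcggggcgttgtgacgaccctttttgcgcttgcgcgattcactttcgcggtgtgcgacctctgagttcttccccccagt
Pno1: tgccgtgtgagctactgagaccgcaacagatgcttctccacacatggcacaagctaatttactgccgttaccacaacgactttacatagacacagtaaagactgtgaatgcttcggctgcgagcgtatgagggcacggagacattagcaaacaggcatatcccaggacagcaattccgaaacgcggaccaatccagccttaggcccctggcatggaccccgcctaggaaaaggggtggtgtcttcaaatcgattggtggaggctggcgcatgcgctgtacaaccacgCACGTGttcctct
Nop2 rose from 60.4, 68.3, and 73.6 CPM to 414, 448, and 366 CPM and Pno1 from 44.6, 43.9, and 52.8 CPM to 286, 241, and 269.7 CPM. CACGTG was found in the promoters of 16 of the 59 genes of ribosome biogenesis that rose and have a RefSeq window. Over all protein-coding genes it was found in 14.8% of the promoters of 1657 genes that rose, in 7.11% of those of 2378 genes that fell, and in 9.11% of 13212 promoters of genes tested. CACGTG and the cAMP response element TGACGTCA both contain a CpG, and promoters of genes that rose were richer in GC (median 61.3%) than those of genes that fell or of all genes tested (59.3% each), although the median was also 61.3% over the tested genes that averaged at least 50 counts. TGACGTCA was found in 4.53% of promoters of genes that rose, 1.47% of those that fell, and 2.82% of those tested, and the AP-1 motif TGANTCA in 4.77%, 5.38%, and 5.72%. Among genes that averaged at least 50 counts, CACGTG was found in 15.5% of promoters of those that rose and 10.6% of those tested, TGACGTCA in 4.69% and 3.55%, and TGANTCA in 4.41% and 4.28%.

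Genes of translation and protein folding mostly rose. Of 42 translation initiation factors, 22 rose and 1 fell (median 1.05). Eif1a and Eif4e, the cap-binding protein, rose by 2.80 ± 0.17 and 2.32 ± 0.18, and Eif5a went from 384, 341, and 495 CPM to 1955, 1704, and 2014 CPM (2.22). Of 20 aminoacyl-tRNA synthetases, 16 rose and 0 fell (median 1.49), among them Iars (2.22), Rars (2.07), and Tars (2.05). Of 36 heat shock proteins and chaperones, 25 rose and 1 fell. Hsp90ab1, a cytosolic chaperone, had the second largest gain in CPM of the genes named here, from 1984, 1821, and 2231 CPM to 7760, 6836, and 6340 CPM (1.79 ± 0.15), and the mitochondrial chaperone genes Hspd1 and Hspa9 rose by 2.57 and 2.05. Of 38 proteasome genes, 16 rose and 3 fell. With library totals alone, 10 were higher. The activator subunit Psme3 rose by 2.39 ± 0.15, whereas the 3 that fell, Psmb8, Psmb9, and Psmb10 (-1.23, -1.02, and -1.28), encode the catalytic subunits of the immunoproteasome, which interferons are known to induce. The call of Psmb9 was lost without 0 h library 3 (-0.88), 4 h library 1 (-0.76), or 4 h library 2 (-0.99).

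Nutrient uptake and biosynthesis rose in part. Of 32 genes of amino acid transport, serine and one-carbon metabolism, and the ATF4 response, 19 rose and 2 fell (median 1.34). Slc7a5, the light chain of a transporter of large neutral amino acids, was at 83.1, 74.4, and 97.6 CPM at 0 h and 767, 723, and 723 CPM at 4 h (3.12 ± 0.16). Slc7a1 and Slc1a5, which carry cationic amino acids and glutamine, rose by 3.26 and 2.69. Shmt1, a one-carbon enzyme, went from 12.5, 13.4, and 17.2 CPM to 460.2, 429.5, and 455 CPM (4.96 ± 0.19). Of 15 polyamine genes, 7 rose and 0 fell. Odc1, the rate-limiting enzyme of polyamine synthesis, was at 41.0, 28.4, and 26.6 CPM at 0 h and 624, 686, and 628 CPM at 4 h (4.34 ± 0.22), and Srm, spermidine synthase, rose by 3.08 ± 0.18.

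Glycolysis genes were split, with 11 of 32 higher and 10 lower. Hk2, an inducible hexokinase, went from 1.60, 1.42, and 3.35 CPM to 50.8, 65.7, and 47.5 CPM (4.67 ± 0.29), and the lactate transporters Slc16a1 and Slc16a3 rose by 3.31 and 3.32. Pdk1, which holds pyruvate out of the mitochondrion, fell from 446, 445, and 383 CPM to 57, 79.4, and 83.5 CPM (-2.54 ± 0.16), and Pfkm and Aldoc fell by 2.38 and 2.79. Of 37 genes of cholesterol and fatty acid synthesis, 11 rose and 8 fell. Sqle and Cyp51, of cholesterol synthesis, rose by 1.95 and 2.45, and the exporter genes Abca1 and Abcg1 fell by 2.66 and 2.27. Scd2, a fatty acid desaturase, fell by 2.98. Of 46 respiratory chain subunits, 5 rose and 1 fell (median 0.331), so most stayed under the fold threshold, and 3 rose without 0 h library 2 or without 4 h library 3, and 1 with library totals alone.

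Few genes of DNA replication and mitosis were called at 4 h. Of 43 DNA replication genes, 3 rose and 3 fell (median -0.158), and of 30 mitosis genes 0 rose and 4 fell (median -0.571). Mcm2, a subunit of the replicative helicase, was at 116, 102, and 118 CPM at 0 h and 186, 167, and 178 CPM at 4 h, higher in each 4 h library but under the fold threshold (0.66, adjusted p = 7.05e-05). Mki67 was at 15.2, 10.7, and 7.81 CPM at 0 h and 10.8, 4.58, and 0.745 CPM at 4 h, with overlapping groups and no call (-1.05). It was called lower without 4 h library 1 (-2.05), without 0 h library 3 (-1.28), with the replicate number as a block (-1.23), and in the fit of only the 6 libraries compared (-1.01). These counts turned on single libraries, since without 4 h library 1, in which Mki67 stood highest, 14 of the 30 mitosis genes and 6 of the replication genes fell, and without 4 h library 3 the mitosis count was 2. Without 0 h library 3 it was 7. With the replicate number as a block, 6 mitosis genes fell. With library totals alone, 7 did, and 1 replication gene rose and 6 fell. Pcna, the sliding clamp, rose by 1.32, and Top2a and Kif23 fell by 1.29 and 2.15. Of 26 G1 genes, 5 rose and 9 fell (3 rose with library totals alone). Ccnd2, the D-type cyclin of T cells, was at 586, 561, and 812 CPM at 0 h and 2157, 2279, and 2268 CPM at 4 h (1.78 ± 0.16), and Cdkn1a, encoding the inhibitor p21, went from 1.2, 0.632, and 1.41 CPM to 60.6, 73.0, and 62.0 CPM (5.90 ± 0.26). Cdkn2d and Rbl2, which hold cells in G0 or G1, fell by 3.19 and 2.50, and E2f2 and Ccne1 fell by 2.52 and 2.26.

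Interferon-stimulated genes had the lowest median of the 32 pathway lists (-1.5), 26 of 45 being lower and 4 higher. Ifit1, Oas2, and Isg15, which act against viruses, fell by 3.33, 3.27, and 2.22. Ifit1 was at 55.4, 56.6, and 98.5 CPM at 0 h and 5.01, 7.20, and 8.80 CPM at 4 h, and the groups did not overlap. The 4 that rose, Gbp2, Iigp1, Gbp5, and Irgm2, are GTPases that are induced mainly by interferon gamma. Gbp2 was at 86.0, 95.1, and 109.6 CPM at 0 h and 111, 324, and 503 CPM at 4 h. At 4 h it stood high in the libraries 2 and 3 and near the 0 h level in library 1, and Gbp5 (21.8, 70.6, and 83.3 CPM) and Iigp1 (27.4, 82.2, and 112 CPM) had the same order. The rise of Iigp1 was not called without 4 h library 3 (0.93), and that of Gbp5 without 4 h library 2 (0.93), 4 h library 3 (0.74), or 0 h library 1 (0.98). The count of 4 went to 1 without 4 h library 3 or with library totals alone, and to 2 without 4 h library 2, without 0 h library 1, with the replicate number as a block, or with DESeq2.

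**Figure D2:**
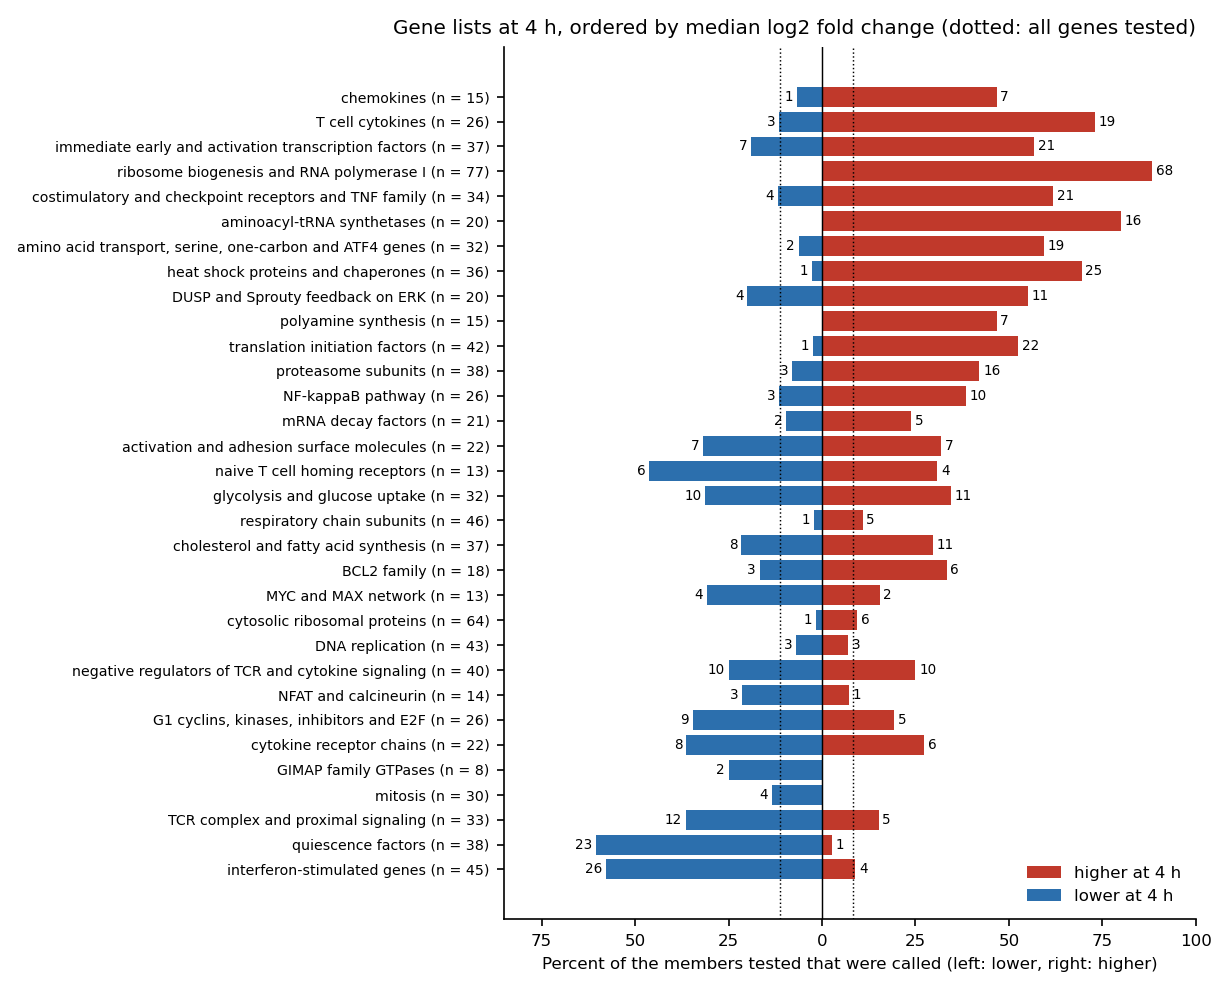
Share of the tested members of each of 32 pathway lists that rose (red, right) or fell (blue, left) in WT cells at 4 h, with the number of genes beside each bar and dotted lines at the shares of all genes tested (8.24% and 11.1%). Of the tested genes that averaged at least 50 counts, 1961 of 10913 rose and 2331 fell. Lists are ordered by their median log2 fold change, from chemokines at the top to interferon-stimulated genes at the bottom, and ribosome biogenesis has the highest share that rose (68 of 77).

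Ranked by fold alone among protein-coding genes that averaged at least 50 counts, the 12 genes with the highest fitted log2 fold change included Fosl1, Nr4a2, Il2, and Rgs16, described above. The place of Fosl1 rests on 0 counts at 0 h. Among the others was Bdh2, a cytosolic hydroxybutyrate dehydrogenase, at 0.0333, 0.0602, and 0 CPM at 0 h and 18.7, 16.2, and 18.1 CPM at 4 h, and Spin4, a spindlin family gene, which went from 0.133, 0.211, and 0.218 CPM to 103, 79.3, and 87.3 CPM (8.85 ± 0.29). Sema7a, a membrane-anchored semaphorin, was at 2.53, 2.23, and 5.63 CPM at 0 h and 1012, 1344, and 1212 CPM at 4 h, a log2 fold change of 8.41 ± 0.43. Chst2, a sulfotransferase of carbohydrate chains, Eml1, a microtubule-associated protein, and Akr1c18, which reduces progesterone, rose by 7.78, 7.66, and 7.49. Bdh2 was at or below the floor of 3 reads in each 0 h library. Of 13823 genes with at most 3 reads in each 0 h library, 22 reached 1 CPM in every 4 h library, 14 of them protein coding. The highest of the 22 was Gm17322, a long noncoding RNA gene, with 25.6, 31.2, and 43.1 CPM at 4 h. Areg, encoding amphiregulin, Acod1, which makes itaconate, and Ccl1 were also among the 22. At 4 h Acod1 was at 2.52, 1.06, and 1.60 CPM in enriched cells but at 0.421, 0, and 0.0377 CPM in sorted cells. Ccl1 had means of 1.93 and 0.575 CPM in enriched and sorted cells, and Areg of 5.03 and 9.56 CPM.

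The largest falls by fold held genes of varied function. Slc16a5, of the monocarboxylate transporter family, went from 73.4, 79.3, and 98.3 CPM to 0.85, 1.14, and 1.17 CPM (-6.31 ± 0.24). Dtx1, a ubiquitin ligase of the Notch pathway, went from 289, 340.0, and 343 CPM to 4.09, 5.59, and 4.61 CPM (-6.08 ± 0.22). Ampd1, the AMP deaminase of muscle and lymphocytes, fell from 21.0, 22.5, and 20.0 CPM to 0.315, 0.311, and 0.390 CPM (-5.96 ± 0.34), and Lrrc75b from 16.4, 16.1, and 14.3 CPM to 0.315, 0.207, and 0.0355 CPM (-6.32 ± 0.41). Slc16a5, Dtx1, and Ampd1 fell in the sorted cells too, by 5.92, 5.77, and 6.55. Lrrc75b fell there by 3.65, and its responses were called different, but not with filterByExpr. Drc1, a gene of motile cilia, was at 7.95, 4.58, and 4.83 CPM at 0 h and had at most 1 read in each 4 h library, and Hspa12a at 3.29, 5.99, and 2.89 CPM and again at most 1. Gfra2, the receptor of neurturin, was at 2.53, 3.07, and 4.85 CPM at 0 h in enriched cells and at 0 counts in all 6 sorted libraries at 0 h and 4 h. Slc40a1, also among the largest falls, went from 35.9, 56.2, and 69.4 CPM to 1.23, 1.01, and 1.35 CPM. Its sorted 0 h mean was 0.14 CPM. Hpgd fell by 5.18, with a sorted 0 h mean of 0.049 CPM. Lbp fell by 6.1 but was not called in sorted cells (-0.90). Ace fell by 6.21 and had no read in any library of the LAT experiment, so it was not tested in sorted cells. Drc1 and Hspa12a fell in sorted cells too, by 6.94 and 4.23.

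Ranked by the difference in CPM, which counts reads and is not corrected for gene length, the gains were led by Nr4a1, Hsp90ab1, Nr4a3, Ncl, and Ptprc, and Srgn and Itm2a followed (Srgn 328, 254, and 373 CPM to 3095, 2688, and 3596 CPM, 3.3 ± 0.21 on the log2 scale). Vsir, which encodes the inhibitory receptor VISTA, went from 578, 549, and 643 CPM to 2768, 2674, and 2721 CPM (2.21 ± 0.15). The losses were led by Tmsb4x, encoding thymosin beta 4, which binds actin monomers and went from 4541, 4215, and 5854 CPM to 1823, 1537, and 2323 CPM (-1.36 ± 0.19). Ets1, a transcription factor of resting lymphocytes, fell from 2982, 2394, and 2942 CPM to 588, 728, and 775 CPM (-1.99 ± 0.17). Rac2 and Flna, which act on the actin cytoskeleton, fell by 2.04 and 1.11.

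Markers of cells other than CD4+ T cells were measurable and were mostly lower at 4 h. B cell markers summed to 1310, 1040, and 3320 CPM at 0 h and to 532, 368, and 978 CPM at 4 h, with 13 of 17 lower and 1 (Fcer2a, 1.38) higher. Library 3 was the highest at both times, and without 0 h library 3 only 4 were lower and Fcer2a rose by 2.37. Antigen-presentation genes summed to 566, 388, and 2230 CPM and to 315, 251, and 867 CPM, and all 7 fell. That count was 2 without 0 h library 3, 4 without 4 h library 1, and 3 without 4 h library 2, with DESeq2, or with filterByExpr. Myeloid and dendritic cell markers summed to 344, 355, and 665 CPM and to 99.5, 92.9, and 120 CPM, with 18 of 22 lower. Csf1r, the receptor of macrophage colony-stimulating factor, went from 31.9, 43.3, and 61.8 CPM to 2.39, 4.25, and 4.26 CPM. NK cell and cytotoxic markers had 6 of 10 lower, γδ T cell markers 4 of 6, and CD8 markers 1 of 2. Of 6 regulatory T cell markers, 1 rose (Itgb8, 2.41) and 0 fell. Erythroid and platelet markers summed to between 1080 and 2470 CPM at 0 h and between 1090 and 2020 CPM at 4 h, against at most 1.16 CPM at 0 h and 2.11 CPM at 4 h in the sorted cells. Regulatory T cell markers summed to between 89 and 91.6 CPM at 0 h and between 113 and 136 CPM at 4 h. The B cell, antigen-presentation, and myeloid sums were lower at 4 h, as were the genes that fell, and their part in the results was not tested.

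**Figure D3:**
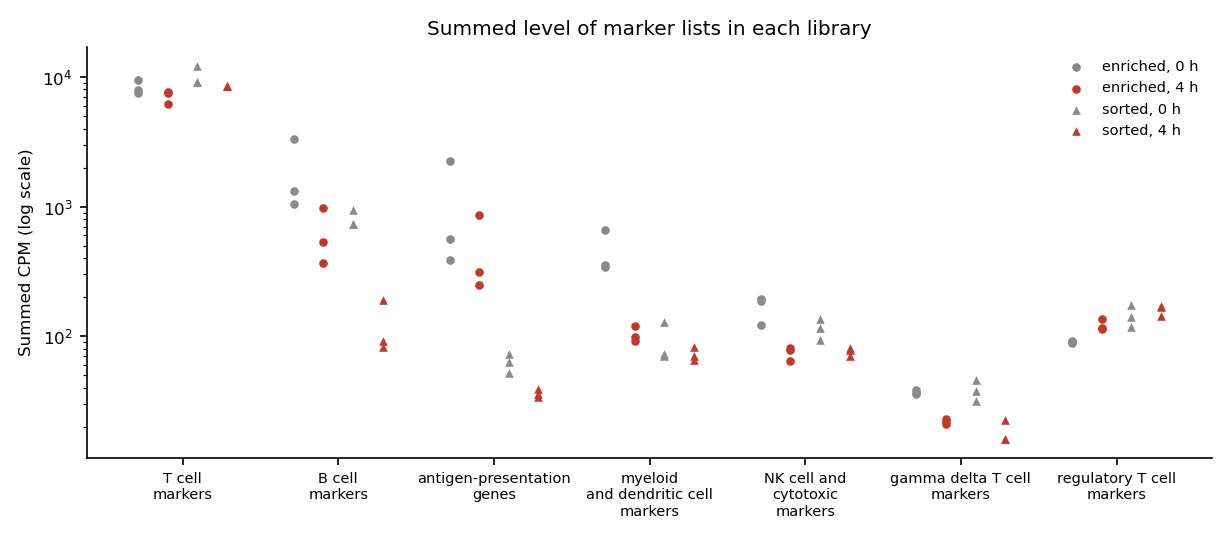
Summed CPM on a log scale of 7 marker lists in each WT library at 0 h (gray) and 4 h (red), in the enriched cells (circles) and in the sorted cells of the other experiment (triangles). B cell, antigen-presentation, and myeloid sums were lower in each same-numbered enriched library at 4 h, and at 0 h the antigen-presentation sums were 388 to 2230 CPM in enriched and 52.6 to 73.1 CPM in sorted cells.

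The genes of the 4 h response were followed to 20 h in WT cells. The comparison of 20 h with 4 h called 2822 genes higher (8.74% of 32290) and 3943 lower (12.2%). It shares the 4 h libraries with the first comparison, so values are only set side by side. Of the 2661 genes that rose at 4 h, 797 were lower at 20 h than at 4 h, 248 were higher still, and 1616 were not called. Nr4a1 was at 370.3, 369, and 327 CPM at 20 h (-4.38 against 4 h), Fosl2 at 25.7, 30.6, and 26.4 CPM (-5.15), and Tnf at 94.8, 131, and 119 CPM (-2.62). Cd69 and Cd40lg were lower at 20 h too (-2.36 and -2.75). Irf4 was at 1362, 1415, and 1485 CPM (-0.73) and Odc1 at 335, 435, and 465 CPM (-0.65), both under the fold threshold. Il2 went on rising to 105, 215, and 176 CPM (1.85), and Tfrc to 1509, 1887, and 1768 CPM (1.23).

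Of the 3587 genes that fell at 4 h, 875 were higher at 20 h than at 4 h, 757 lower still, and 1955 not called. Klf2 was at 19.8, 16.6, and 14.0 CPM at 20 h, S1pr1 at 25.5, 16.7, and 15.6 CPM, and Il7r at 11.5, 10.4, and 9.32 CPM, each lower again (-3.03, -3.56, and -4.58). Igfbp4 recovered in part, to 189, 157, and 174 CPM (3.35). Cd226, at 158, 174, and 153 CPM, and Scd2, at 196, 133, and 132 CPM, ended above their 0 h levels in all libraries. The cell cycle lists changed after 4 h. Of the DNA replication genes 42 of 43 were higher at 20 h than at 4 h (median 3.44), and of the mitosis genes 29 of 30 (median 3.5). Mcm2 reached 808, 771, and 687 CPM and Mki67 44.0, 42.1, and 10.1 CPM, of which the third Mki67 library lay within the range of the 0 h libraries. Cdc6, which loads the replicative helicase, went from 1.70, 0.570, and 0.497 CPM at 4 h to 159, 167, and 139 CPM. Ribosome biogenesis had few calls after 4 h, with 1 of 77 higher and 3 lower (median -0.0755).

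**Figure D4:**
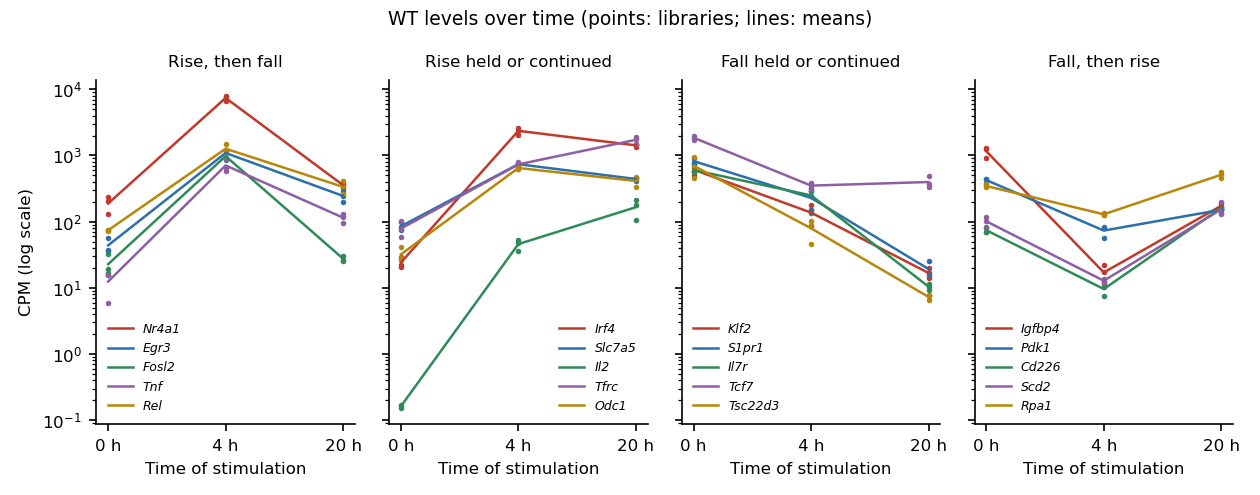
CPM on a log scale of 20 genes in WT enriched cells at 0 h, 4 h, and 20 h, with a point for each of the 3 libraries and lines through the means. The panels show genes that rose at 4 h and were then lower (Nr4a1, Egr3, Fosl2, Tnf, and Rel), that rose and held or rose further (such as Il2), that fell and stayed low (such as Klf2), and that fell and were then higher (such as Igfbp4).

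The same stimulation was given to sorted WT cells, which share no library with the enriched cells. In that table, 2236 of 27780 genes (8.05%) were higher and 2581 (9.29%) lower at 4 h. Of the 2661 genes that rose in enriched cells, 1902 rose in sorted cells, which is 71.5% of the first list and 85.1% of the second. Of the 3587 that fell, 2115 fell in both, 59% and 81.9% of the lists. Calls in opposite directions were made for 2 and 17 genes. Over 4268 genes called in enriched cells and averaging at least 50 counts, Pearson's r between both log2 fold changes was 0.926, which describes genes that are not independent of each other. Medians were 1.57 in enriched and 1.39 in sorted cells for the genes that rose and -1.65 and -1.38 for those that fell. Choosing genes by their calls in enriched cells favors larger values there and leaves out small changes. The medians thus cannot show a weaker response of the sorted cells, and r is raised by that choice. Nr4a1 (5.96), Irf4 (6.46), Il2 (7.20), Myc (2.95), and Odc1 (4.71) rose in sorted cells. Purification, mice, and experiment differ together between both groups and cannot be told apart.

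The difference between both responses was tested in 1 fit of 12 libraries. In that fit the SE hardly followed a gene's own spread. It was 0.26 for Vsir (2768, 2674, and 2721 CPM at 4 h in enriched cells) and 0.257 for Txnip (111, 218, and 258 CPM). The ± values and p-values of the differences therefore do not measure the spread of each gene. Of 28564 genes, 52 (0.182%) had a higher and 185 (0.648%) a lower log2 fold change in enriched cells, together 0.83%, and 1619 had an unadjusted p under 0.05. These counts fell to 2 and 18 with filterByExpr, which drops genes with low counts and left 14394 genes, and to 25 and 95 with DESeq2. Calls were not lost only for genes with low counts. Of the 52 and 185 genes, 46 and 154 averaged at least 50 counts in the enriched libraries. Klf2 stayed in the filterByExpr fit with a difference of -1.35 but was not called (adjusted p = 0.674). The cause of the lost calls was not tested. All 3 settings called the same 20 genes, 18 lower and 2 higher. Cd24a, a glycosylated surface protein of immature and activated cells, was at 58.0, 18.4, and 54.4 CPM at 0 h and 182, 174, and 179 CPM at 4 h in enriched cells, and at 2.27, 2.03, and 1.82 CPM and 199, 199, and 206 CPM in sorted cells. The 0 h levels lay further apart than the 4 h levels, and the responses differed by -4.59 ± 0.27 on the log2 scale (adjusted p = 3.62e-59). Cdkn1a rose in both (5.90 and 8.72), with a difference of -2.82 ± 0.38. Trf, encoding transferrin, was at 24.9, 44.1, and 43.3 CPM at 0 h and 3.65, 7.07, and 6.67 CPM at 4 h in enriched cells and at 0.392, 0.413, and 0.0700 CPM and 0.935, 1.83, and 1.32 CPM in sorted cells, a difference of -4.92 ± 0.42.

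Several of the 20 genes are known from macrophages and other tissue cells. Hmox1, the heme oxygenase of macrophages that clear red cells, was at 45.5, 86.8, and 89.0 CPM at 0 h and 6.64, 8.18, and 9.93 CPM at 4 h in enriched cells and at 0.745, 0.868, and 2.17 CPM and 2.66, 3.21, and 2.57 CPM in sorted cells, with a difference of -4.29 ± 0.33. It fell in enriched cells and rose in sorted cells, and the difference was -4.93 without sorted 0 h library 3. Axl, a receptor through which macrophages bind dying cells, had a difference of -2.39 ± 0.31, falling by 1.68 in enriched cells and not called in sorted cells (0.72). Stab2, a scavenger receptor of sinusoidal cells, was at 2.53, 2.62, and 3.13 CPM at 0 h in enriched cells and at 0 counts in the sorted 0 h libraries, so no size of its difference is given. Fn1, which encodes fibronectin and had at most 1 read in any sorted 0 h library, is also among the 20. Of the 185 genes with a lower response in enriched cells, 131 had a 0 h mean over 2-fold higher in enriched than in sorted cells, and 39 had a 4 h mean over 2-fold higher in sorted cells. The genes were called on these same levels, so both counts only describe them. The share over all genes was not computed. The summed myeloid markers, given above, were 344 to 665 CPM at 0 h in enriched cells and 70.4 to 130 CPM in sorted cells. Their part in these differences was not tested.

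Genes of the naive program and of interferon gamma differed as well. Klf2 and S1pr1 fell in enriched but were not called in sorted cells (-0.76 and -0.54), with differences of -1.38 ± 0.25 and -1.30 ± 0.26 that were called. Without sorted 4 h library 3 they were -0.61 and -0.85 and not called, and neither was called by DESeq2. Sorted 4 h library 3 stood apart from the others with 198, 192, and 607 CPM of Klf2 and 345, 402, and 786 CPM of S1pr1 in the libraries 1 to 3. Gbp2 (2.64 ± 0.25), Gbp5 (2.55 ± 0.27), and Iigp1 (2.88 ± 0.27) had higher responses in enriched cells, not called with filterByExpr. In sorted cells Gbp2 was at 113, 156, and 113 CPM at 0 h and 63.7, 46.1, and 91.2 CPM at 4 h. Over all interferon-stimulated genes, 0 of 45 rose and 39 fell in sorted cells, and 15 differed between both responses. Hbegf had a difference of 3.33 ± 0.37 (4.02 without 0 h library 1 of the enriched cells), at 29.6, 37.9, and 25.4 CPM already at 0 h in sorted cells against 0.499, 0.181, and 0.146 CPM in enriched cells. The sorted cells carry the human form of its product as the hDTR reporter, and whether reads of the reporter were counted for the mouse gene was not tested.

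**Figure D5:**
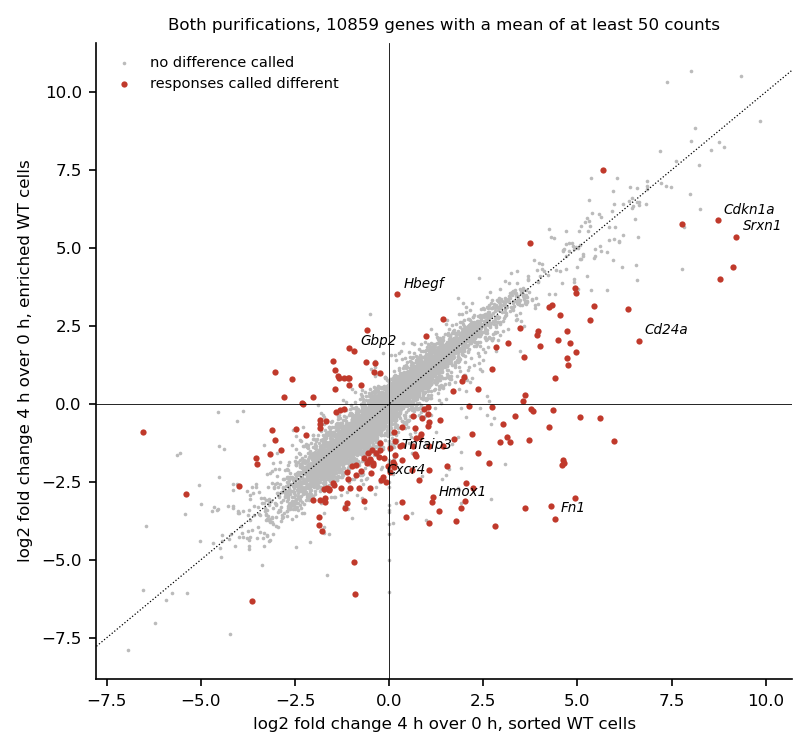
Log2 fold change at 4 h in sorted WT cells (x axis) and in enriched WT cells (y axis) for genes that averaged at least 50 counts, with responses called different in red and a dotted line at equality. Most genes lie along the line, and most of the red points lie below it, toward a lower log2 fold change in enriched cells, among them Cd24a and Hmox1.

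The WT response was also set against that of Cd5-/-Cd6-/- cells of the same experiment. The test of the difference between both responses called 0 of 32290 genes by edgeR, with 671 (2.08%) at an unadjusted p under 0.05, and 0 by DESeq2, with 382. Fits that left out 1 library called at most 4 genes, without WT 0 h library 3. A share of 2.08% is below what that threshold of 0.05 would give with no difference, so the test was strict. Cd5, which rose in WT cells and is deleted in the other cells, was not called either. The lack of calls therefore does not show that both responses were equal.

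In structure, protein-coding genes that rose and fell were much like the rest. Their median exonic length was 4279 and 4296 bases, against 4058 bases over all 17159 genes described, and the medians of the genomic span were 21474, 25540, and 21926 bases. The median number of exons was 9 for genes that rose, 10 for genes that fell, and 9 for all. The 93 genes that rose over 16-fold and averaged at least 50 counts had a median of 6 exons, a span of 20641 bases, and an exonic length of 3927 bases, and the AP-1 motif was found in 12.7% and the NF-kappaB consensus in 11.4% of the 79 promoters known for them, against 4.28% and 4.93% of the promoters of all genes with that mean. These are shares of few promoters, given as a description without a test.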

How the data were processed

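RNA (TruSeq Stranded mRNA, single reads) was trimmed with DimerRemover, aligned to GRCm38 with STAR, and counted per gene with featureCounts by the authors. The deposited values are raw counts. The annotation release and the strand setting of the counting were not given in the sources used here, so overlapping genes, antisense genes, and paralogs are uncertain. All 36 libraries of the CD5/CD6 experiment (55385 genes, 55144 named) were fitted together in R 4.3.3 with edgeR 4.0.16 (TMM, quasi-likelihood test, Benjamini-Hochberg adjustment), keeping genes with at least 1 read, and 12 WT libraries of both experiments were fitted jointly for the difference. Named genes were key genes, the largest changes by fold or CPM, and up to 4 members per direction of each list with a mean of at least 50 counts. Others, named for contrast, were chosen after their values were seen, and all members and lists were chosen with earlier results of these data known. Errors are SE of the log2 fold change, with 3 libraries per group. Same-numbered 0 h and 4 h libraries deviated together (r of 0.274, 0.585, and 0.543 over 10913 genes). On simulated data edgeR recovered 200 of 200 changed genes for 4 h against 0 h (21736 genes), with 3 unchanged genes called. For the difference of responses between WT and Cd5-/-Cd6-/- cells it recovered 189 of 200, with 6 unchanged genes called. The changed genes were all well counted, rose and fell in equal number, and shared 1 common dispersion. The simulation therefore could not test the scaling or the calls of genes with low counts in the real data. Alternatives were other scaling factors, filterByExpr, a replicate block, DESeq2 1.42.0, a fit of 6 libraries, adjusted p alone, and leaving out each library. Some items are not reported here.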

Additional observations from a re-analysis of the deposited data

Results flagged for a closer look

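The 4 h response differed between enriched and sorted WT cells, by the test of the difference itself, for 52 genes with a higher and 185 genes with a lower log2 fold change in enriched cells. Of the genes whose difference is given above, the log2 fold change was lower in enriched cells for Trf (-4.92), Cd24a (-4.59), Hmox1 (-4.29), Cdkn1a (-2.82), Axl (-2.39), Ccl3 (-2.29), Ccl4 (-1.98), Klf2 (-1.38), and S1pr1 (-1.3). It was higher for Hbegf (3.33), Iigp1 (2.88), Gbp2 (2.64), and Gbp5 (2.55). Other genes named above whose response was called different were Jun, Tnfaip3, Lrrc75b, Lbp, Tsc22d3, Bbc3, Abcg1, Dusp1, Zfp36l2, Mxd4, Txnip, and Cd69, each lower in enriched cells, and Akr1c18 and Rps10, each higher. Of these, only Abcg1 kept its call with filterByExpr. At 0 h, Jun, Tnfaip3, Dusp1, and Cd69 were highest in library 1 of the enriched cells. Stab2 and Fn1, with no size given, were also lower. Summed myeloid and antigen-presentation markers were higher in enriched than in sorted cells at 0 h, and sorted 4 h library 3 stood apart in Klf2 and S1pr1. The part of either in these differences was not tested.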

How the results depend on the processing

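The counts of 2661 higher and 3587 lower genes stayed within 1.5 times under other scaling factors, filterByExpr, the replicate block, DESeq2, and the fit of 6 libraries, with 0 calls in the opposite direction. On adjusted p alone, 4299 genes were higher at 4 h, 4461 higher at 20 h than at 4 h, and 3944 higher and 4104 lower in sorted cells. With the replicate number as a block, 2729 genes were higher and 3724 lower, and the block moved no other count of the comparisons by over 1.5 times. The difference between enriched and sorted cells called 52 and 185 genes, 2 and 18 with filterByExpr, and 25 and 95 with DESeq2. Fewer genes were tested with filterByExpr, but genes such as Klf2 stayed in that fit and lost their call. Leaving out 1 library gave 2451 to 2610 higher and 3347 to 3601 lower genes at 4 h, 2565 to 2834 and 3378 to 3922 at 20 h, 1911 to 2262 and 2298 to 2869 in sorted cells, and 42 to 75 and 144 to 229 for the difference. The difference from Cd5-/-Cd6-/- cells went from 0 to 4 higher without WT 0 h library 3, to 1 higher without Cd5-/-Cd6-/- 0 h library 1, and to 1 lower without Cd5-/-Cd6-/- 4 h library 1. TATAAA was found in 8.58% of promoters of genes that fell and in 7.37% of those with a mean of at least 50 counts. Rcan1 turned to -0.11 with library totals alone. The cause of these changes was not tested. Counts of 3 reads or fewer, at most 0.106 CPM, could not be told from 0. The p-values rest on a spread between libraries of the same group, estimated over all groups of a fit, with 3 libraries per group. In the joint fit and in that of the sorted cells, the SE hardly followed a gene's own spread. In sorted cells it was 0.1514 for Vsir (3212, 3360, and 2562 CPM at 4 h) and 0.1505 for Txnip (174, 264, and 578 CPM).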
